A study of Homo sapiens with 36 samples.

Results

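The genes described here are the alpha-like globins HBZ, HBM, HBA2, HBA1 and HBQ1 together with AHSP, the chaperone of free alpha chains. They were taken by symbol, with no measured value used, and all 6 were found in each of the 3 deposited tables, which list 60642 genes (K562 degron libraries), 57820 genes (HEL libraries) and 13707 genes (K562 LDB1 shRNA libraries). The series holds 36 RNA libraries from 2 human leukemia lines and concerns LMO2, its partner LDB1 and the DNA-binding protein TAL1. K562 derives from the blast crisis of a chronic myeloid leukemia, HEL from an erythroleukemia, and both carry erythroid features.

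In K562, 4 lines were followed: parental cells, a line named LMO2 control, and LMO2 degron cells named rep 1 and rep 2, treated here as degron lines 1 and 2. Every line, parental cells included, had no dTAGv1 on day 0 and dTAGv1 on days 1 and 4, at a dose written as 750 uM. dTAGv1 joins a tagged protein to an E3 ubiquitin ligase so that the protein is degraded. Each line and day has 2 libraries, bio rep 1 and bio rep 2. What the LMO2 control line carries, and whether a degron line is 1 clone, are not given in the sources used here. HEL cells were electroporated with a non-targeting siRNA pool or with TAL1 siRNA pool 1 or pool 2 (3 libraries each), and K562 cells received a control shRNA or LDB1 shRNA 1 or 2 (1 library each). No label says whether bio reps came from separate cultures, so the p-values measure the spread between these libraries, which may be technical.

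The alpha-like globin genes lie in 1 cluster near the end of the short arm of chromosome 16. The zeta gene comes before the adult alpha genes there, which is the order in which these are used in development. HBZ encodes zeta globin, the embryonic chain, HBA2 and HBA1 encode the same adult alpha chain, and HBM and HBQ1 encode mu and theta globin, relatives whose part in hemoglobin is small. Enhancers upstream of the cluster, some inside introns of NPRL3, switch these genes on in erythroid cells, where GATA1, TAL1, LMO2 and LDB1 bind. AHSP lies elsewhere on chromosome 16 and encodes a small protein that holds alpha chains until a beta-like chain is available.

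In the RefSeq gene order (GRCh38.p14) the members run HBZ, HBM, HBA2, HBA1, HBQ1, with the pseudogene HBZP1 between HBZ and HBM and the pseudogene HBAP1 between HBM and HBA2. Of the 6 members, 1 (HBM) has a promoter in the RefSeq table used here, shown because HBM moved together with its neighbours in the results that follow. The window of 300 bases, chr16:165728-166027 on the plus strand of GRCh38.p14, reads 5′ to 3′ with capitals marking the match to CACCC, the core of the boxes that KLF factors recognise, which is on the other strand:
HBM promoter: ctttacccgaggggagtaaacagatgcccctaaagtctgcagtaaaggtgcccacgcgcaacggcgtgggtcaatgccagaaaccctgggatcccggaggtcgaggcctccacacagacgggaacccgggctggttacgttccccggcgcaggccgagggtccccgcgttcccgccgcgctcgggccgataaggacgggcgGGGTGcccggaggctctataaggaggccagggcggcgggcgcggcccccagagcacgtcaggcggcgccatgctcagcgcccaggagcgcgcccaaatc
Matches to 4 motifs were searched on both strands: the CACCC box, the CCAAT box, the GATA motif (as AGATAA or as TGATAA or as AGATAG or as TGATAG), and the E-box CANNTG. The CACCC match lies 49 bases before the start site (position -49), and an E-box, CAGATG, lies at -230. No match to the GATA motif or to CCAAT is in this window. Among 35116 promoters of the same length, 59.9% hold CACCC, 68.7% an E-box, 34.6% CCAAT and 25.0% the GATA motif.

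Depth was 17196559 to 26321396 reads per K562 degron library, as recovered from the FPKM values, and 15869619 to 27029836 counts per HEL library. For the LDB1 libraries, TPM keeps no depth, which is unknown. LMO2 RNA, whose protein rather than RNA a degron removes, stood at 31.2 to 46.6 FPKM in parental cells, 212 to 443 in the LMO2 control line and 128 to 271 in the degron lines. TAL1 fell in HEL from 432 to 490 CPM (counts scaled to library size) to 162 to 200, and LDB1 was 468 TPM with the control shRNA and 62.4 and 69.6 TPM with the LDB1 shRNAs. Of 8 erythroid markers, SLC4A1 was under 1 unit in every degron-line library of days 1 and 4 and in every HEL library.

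Before any treatment comparison, the libraries of the K562 set differed by bio rep number. In parental cells HBZ stood at 299, 367 and 211 FPKM on days 0, 1 and 4 in bio rep 1 and at 99.6, 78.4 and 81.0 in bio rep 2. The summed level of the 5 alpha-like globins was 1.25 to 4.00 times higher in bio rep 1 than in bio rep 2 in each of the 6 pairs of control-line libraries (parental and LMO2 control) and 2.05 and 2.46 times higher in the degron lines on day 0. On day 4 the order was the reverse in both degron lines, with ratios of 0.485 and 0.792. The day 4 changes are therefore given for each bio rep as well.

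The control lines, with and without dTAGv1, held measurable RNA of all 5 globins, and AHSP was low. Over the 12 control-line libraries, FPKM, a level per gene length, averaged 246 ± 121 (SD, n = 12) for HBZ and 145 ± 78.3 for HBA2, and HBZ exceeded HBA2 in 12 of 12. HBM (84.1 ± 48.4), HBQ1 (78.9 ± 22.1) and HBA1 (74.2 ± 39.8) followed and could not be ordered: HBM exceeded HBQ1 in 6 of 12 libraries and HBQ1 exceeded HBA1 in 8 of 12. AHSP averaged 5.51 ± 3.86 FPKM, below HBA1 in 12 of 12. HBA1 and HBA2 are nearly identical in sequence and reads could have been split between them in counting, so their separate levels are uncertain and their sum is firmer.

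**Figure D1:**
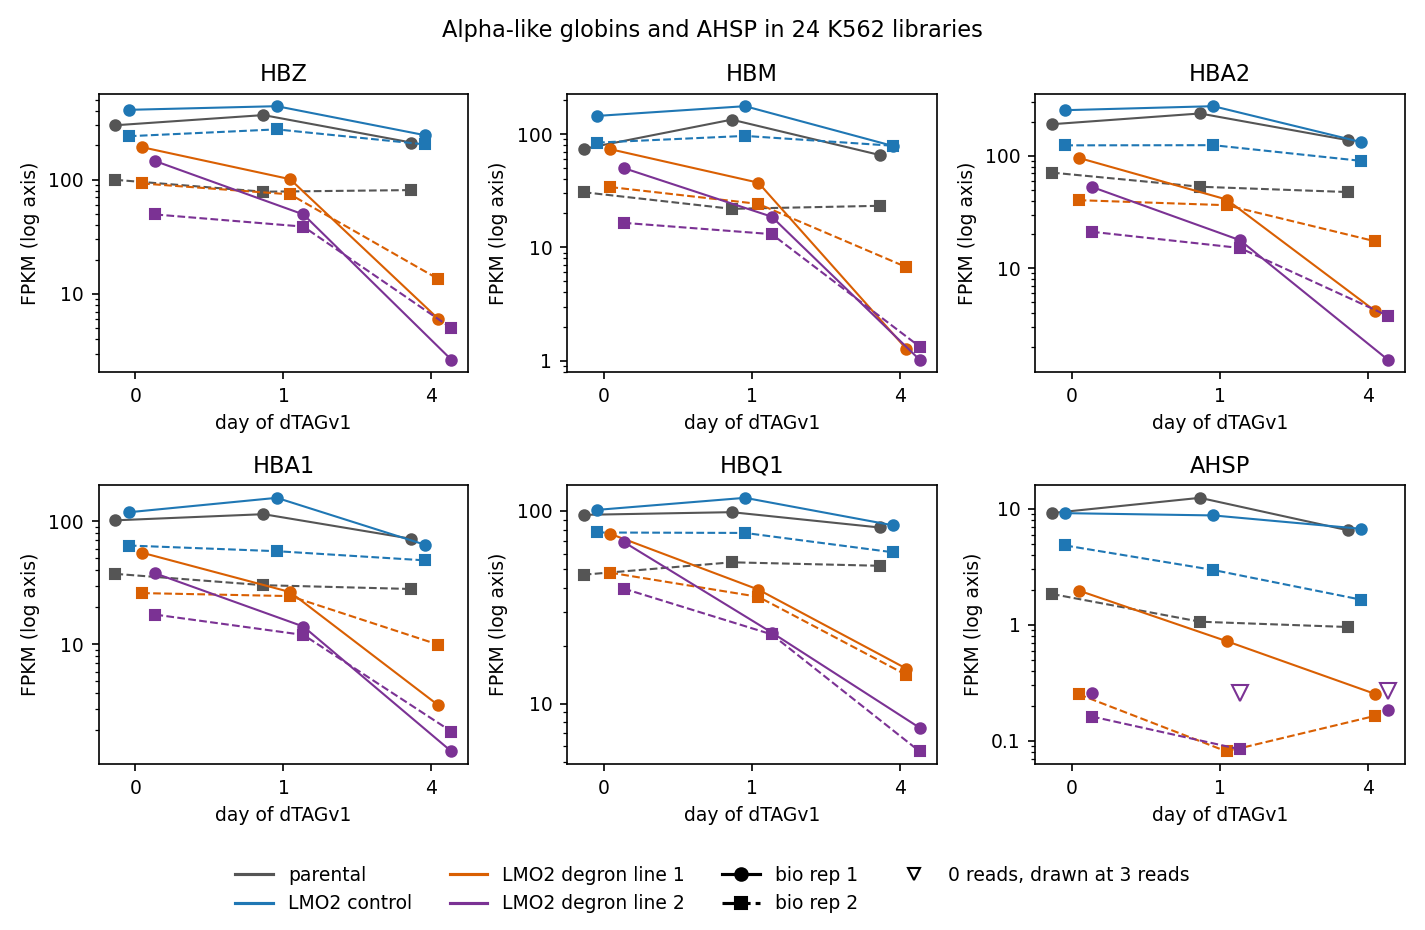
FPKM of each gene (vertical, log axis) on days 0, 1 and 4 of dTAGv1 (horizontal, evenly spaced) in 24 K562 libraries, colored by line, with circles and solid lines for bio rep 1, squares and dashed lines for bio rep 2, and open triangles where a library held 0 AHSP reads, drawn at the level of 3 reads. The 5 globins fall in both degron lines by day 4, with HBZ at 2.65 to 13.5 FPKM against 81.0 to 245 in control lines. AHSP is already under 2 FPKM in the degron lines on day 0. It is also under 2 FPKM in parental bio rep 2 on all days and in LMO2 control bio rep 2 on day 4.

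HBZ, the embryonic chain, had the largest estimated day 4 change of the 6 on the log2(FPKM + 1) scale, while edgeR on the recovered reads put HBM (-3.98) past HBZ (-3.86). Its day 0 levels in the degron lines were 192 and 92.6 FPKM (line 1, bio rep 1 and 2) and 145 and 49.6 (line 2), and the day 1 levels were 101, 74.3, 49.6 and 38.8 in the same order. By day 4 these had come to 6.07, 13.5, 2.65 and 5.02 FPKM, against 211 and 81.0 (parental) and 245 and 204 (LMO2 control) on that day. The day 4 ranges of degron and control lines did not overlap, and day 0 exceeded day 4 in the degron lines by 31.7, 6.84, 54.7 and 9.88 times. The degron-specific change, which is the mean change from day 0 in the degron lines minus that in the control lines on the log2(FPKM + 1) scale, was -3.52 ± 0.73 (SE, limma adjusted p = 0.00378). Within bio rep 1 it was -4.43 and within bio rep 2 it was -2.61.

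HBM, mu globin, followed HBZ closely. Its day 4 levels in the degron lines were 1.27 and 6.69 FPKM (line 1) and 1.02 and 1.33 (line 2), from 73.6, 34.1, 50.1 and 16.5 on day 0. Control lines held 23.3 to 78.9 FPKM on day 4, above every degron library. The change was -3.32 ± 0.80 (limma adjusted p = 0.00941), with -4.32 in bio rep 1 and -2.31 in bio rep 2. The recovered reads behind the 4 degron values of day 4 were 26, 142, 19 and 26, so the lowest of them rest on few reads.

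HBA2 and HBA1, the adult alpha genes, fell by less than HBZ in the mean, and in bio rep 2 by less than in bio rep 1. In degron line 1, HBA2 went from 95.8 to 4.202 FPKM in bio rep 1 and from 40.3 to 17.4 in bio rep 2. In degron line 2 it went from 52.8 to 1.53 and from 21.1 to 3.77, while the control lines held 47.6 to 138 FPKM on day 4. Levels of HBA1 were 55.5 to 3.20, 26.1 to 9.94, 37.7 to 1.34 and 17.4 to 1.95 FPKM from day 0 to day 4 in the same order, against 28.1 to 72.0 in the control lines on day 4. No degron library of day 4 reached the lowest control library in either gene. The change was -2.39 ± 0.80 (limma adjusted p = 0.0488) for HBA2, -3.61 in bio rep 1 and -1.18 in bio rep 2, and -2.40 ± 0.71 (adjusted p = 0.0269) for HBA1, -3.22 and -1.58. Both calls were close to the threshold in this fit, which has no bio rep block. With 1 library left out, again without the block, HBA2 was called in 7 of 24 fits and HBA1 in 16 of 24. The changes in those fits ranged from -2.85 to -1.94 and from -2.75 to -2.04. With the bio rep number as a block and all libraries kept, the limma adjusted p was 0.0152 for HBA2 and 0.0049 for HBA1.

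HBQ1, theta globin and the last gene of the cluster, gave the most even response. It stood at 76.0, 47.8, 69.1 and 39.5 FPKM on day 0, at 39.1, 35.8, 23.4 and 22.9 on day 1 and at 15.2, 14.1, 7.49 and 5.65 on day 4 in the degron lines. Control lines held 46.7 to 117 FPKM over all days. Every degron library of days 1 and 4 was below every control-line library. The day 4 change was -2.23 ± 0.38 (limma adjusted p = 0.000963), with -2.41 and -2.06 in the 2 bio reps. On day 1 it was -1.02 ± 0.38 (adjusted p = 0.493), and a fit with the bio rep number as a block gave the same change with an adjusted p of 0.0295.

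Read as a group, 5 of the 6 genes were called lower on day 4 at a Benjamini-Hochberg adjusted p under 0.05, where 8.18% of the 15348 genes tested were called lower and 11.6% higher. The median change of the 6 was -2.40, beside 0.06 for all genes tested. The same 5 of 6 calls were made with the bio rep block, where 15.6% of genes were called lower. The limma adjusted p was then 0.00042 for HBZ, 0.00167 for HBM and 3.34e-06 for HBQ1. All 5 also stood lower in each degron line taken alone, although 2 of 6 were called with degron line 1 alone, 4 of 6 with degron line 2 alone, and 3 of 6 with parental cells as the only control or with no filter on low values. Leaving out any 1 of 8 libraries brought the count to 3: parental day 0 bio rep 2, parental day 4 bio rep 1, LMO2 control day 0 bio rep 2, LMO2 control day 4 bio rep 1, and, from degron lines 1 and 2, bio rep 1 of day 0 or of day 4. The call ended for HBA2 and HBA1 in those fits, and HBZ, HBM and HBQ1 were called in all 24. In these bulk libraries, fewer cells making globin and less globin RNA per cell cannot be told apart.

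**Figure D2:**
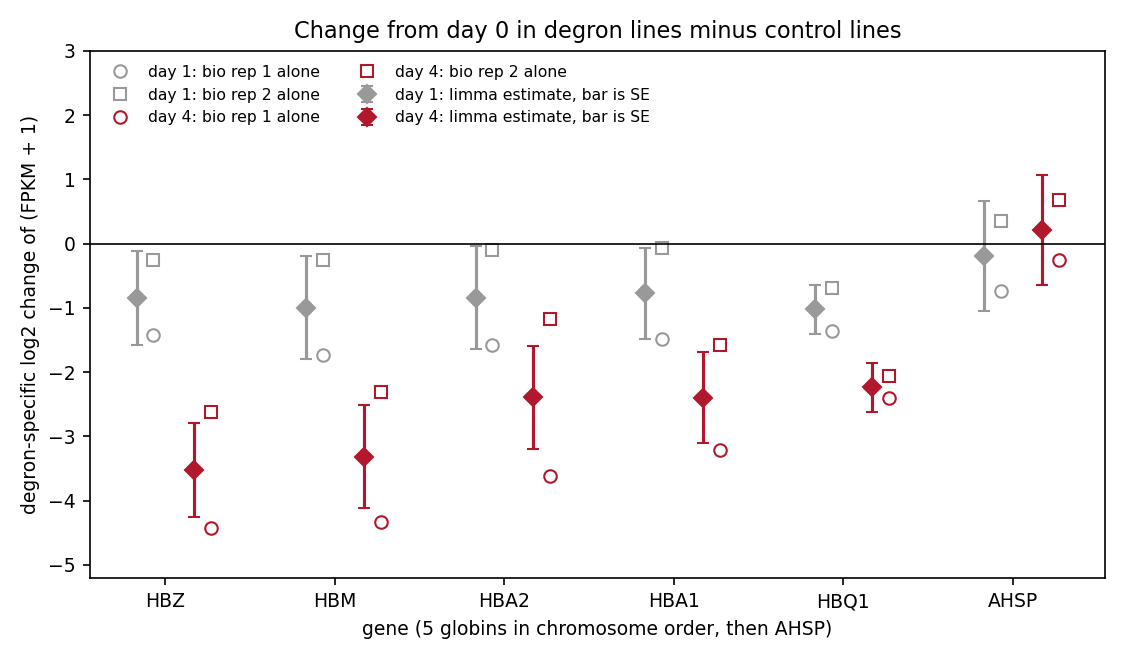
Degron-specific log2 change of (FPKM + 1) from day 0 (vertical) for each gene (horizontal, globins in chromosome order), with filled diamonds and SE bars for the limma estimates on day 1 (grey) and day 4 (red) and open circles and squares for bio rep 1 and bio rep 2 alone. On day 4 the estimates run from -3.52 for HBZ to -2.23 for HBQ1, and AHSP lies at 0.21.

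On day 1 none of the 6 genes was called by limma without the block, where 0.0782% of genes tested were called in either direction (12 genes, and 1069 at an unadjusted p under 0.05). The day 1 changes of the globins were -0.84 ± 0.73 (HBZ), -0.996 ± 0.80 (HBM), -0.84 ± 0.80 (HBA2) and -0.78 ± 0.71 (HBA1), with adjusted p from 0.955 to 0.968. In bio rep 1 the day 1 changes were -1.43 (HBZ), -1.74 (HBM), -1.58 (HBA2), -1.48 (HBA1) and -1.36 (HBQ1), and in bio rep 2 they were -0.26, -0.26, -0.096, -0.071 and -0.69, closer to 0 for each gene. With the block, 0.625% of genes were called lower on day 1, HBQ1 among them, while HBZ, HBM, HBA2 and HBA1 were not (limma adjusted p = 0.550 to 0.649). The change was larger on day 4 than on day 1 for HBZ by the test of the difference itself, at -2.68 ± 0.73 (adjusted p = 0.0392), where 3.26% of genes were called lower. With the block, HBZ was again called (limma adjusted p = 0.00654). HBM (-2.32, adjusted p = 0.0283) and HBQ1 (-1.21, adjusted p = 0.00127) were called too, beside 8.17% of all genes. Of the 24 fits without 1 library, none of which has the block, 12 did not call HBZ. Those were the fits without either degron line 1 library of day 1, degron line 1 day 4 bio rep 1, any degron line 2 library of days 1 and 4, LMO2 control day 1 bio rep 2, either LMO2 control library of day 4, parental day 1 bio rep 2 or parental day 4 bio rep 1 (adjusted p = 0.0602 to 0.0987). HBZ was not called in that difference either with no filter on low values, with parental cells as the only control or with either degron line alone.

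Before dTAGv1, AHSP was barely measurable in all but 1 library of the degron lines. Its day 0 levels were 9.20 and 1.84 FPKM (parental) and 9.18 and 4.83 (LMO2 control), but 1.98 and 0.25 (degron line 1) and 0.26 and 0.16 (degron line 2). Its day 4 levels in the degron lines were 0.25, 0.16, 0.19 and 0 FPKM. Behind the degron values stood 25 recovered reads in 1 library and 10 or fewer in the other libraries, with 0 reads in degron line 2 on day 1 (bio rep 1) and day 4 (bio rep 2). A count of 0 allows up to 3 reads, which would be 0.256 and 0.266 FPKM in those libraries, for counting error only.

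Degron lines and control lines differed in AHSP by -2.08 ± 0.60 on day 0 (limma adjusted p = 0.0276), the sole member called there, while 6.14% of genes tested were called lower. AHSP passed the filter of 1 FPKM in 2 libraries through the control lines and 1 degron library. The filter thus kept AHSP mainly through the lines in which it is high, and the call is given as a description. Levels on day 0 overlapped, with 23 reads in parental bio rep 2 and 25 in degron line 1 bio rep 1. The call ended without parental bio rep 1, LMO2 control bio rep 1, degron line 1 bio rep 2 or either degron line 2 library of day 0 (adjusted p = 0.0694 to 0.103), and also with no filter on low values, with parental cells as the only control or with degron line 1 alone. With the block 4 of 6 were called lower on day 0, beside 12.9% of all genes: AHSP (adjusted p = 0.00107), HBA2 (-1.63, adjusted p = 0.0209), HBA1 (-1.20, adjusted p = 0.0353) and HBQ1 (-0.45, adjusted p = 0.0289). HBZ (-1.12, adjusted p = 0.0540) and HBM (-0.92, adjusted p = 0.163) were not. The day 4 change of AHSP from its own day 0 was 0.21 ± 0.85 (adjusted p = 0.890), and its sign turned with the scale: edgeR on the recovered reads gave -1.19 (adjusted p = 0.694). Bio rep 1 gave -0.25 and bio rep 2 gave 0.68.

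Control lines gave the background of the compound and of time in culture. From day 0 to day 4 their changes ran from -0.63 (AHSP) to -0.17 (HBQ1), with -0.44 ± 0.52 for HBZ, and no gene of the 15348 was called (limma, 509 at an unadjusted p under 0.05, and 0 by edgeR on the recovered reads). On day 1 they ran from -0.17 (AHSP) to 0.21 (HBM), again with 0 genes called (657 unadjusted). The LMO2 control line did not differ detectably from parental cells on day 0 in any member, with HBZ at 0.85 ± 0.73 and HBM at 1.19 ± 0.80 (adjusted p = 0.846 and 0.721), where 1.82% of genes were called. Degron line 2 minus line 1 on day 4 gave -0.47 ± 1.04 for HBZ and -0.85 ± 0.54 for HBQ1 (adjusted p = 1.0 for both), and 2 genes in all, or 0.013%, were called.

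The shares of the members in the alpha-like sum are given next, and no test of them passed adjustment. HBZ held 33.0 to 43.7% of the summed alpha-like FPKM in the control lines and 34.4 to 41.3% in the degron lines on days 0 and 1. On day 4 it held 20.3 and 21.9% in degron line 1 and 18.9 and 28.3% in degron line 2, below every other library. HBM went from 11.4 to 14.9% on day 0 to 4.24 to 10.9% on day 4. HBQ1 moved the other way, to 50.8 and 22.9% in line 1 and 53.4 and 31.9% in line 2, from 15.4 to 27.5% on day 0, with bio rep 1 the higher in both lines. The HBZ share changed by -15.8 ± 6.88 percentage points (SD, n = 4 line and bio rep pairs) from day 0 to day 4 in the degron lines and by 0.040 ± 1.58 in the control lines. An exact two-sided permutation test gave p = 0.0286, the smallest that 4 against 4 allows, and 0.0971 after Benjamini-Hochberg adjustment over the 17 locus tests. It takes each bio rep as a separate unit, although the 4 on each side come from 2 lines with 2 bio reps each. For HBA1 and HBA2 together the change was 2.86 ± 10.7 against -3.43 ± 1.56 points (exact permutation p = 0.400).

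**Figure D3:**
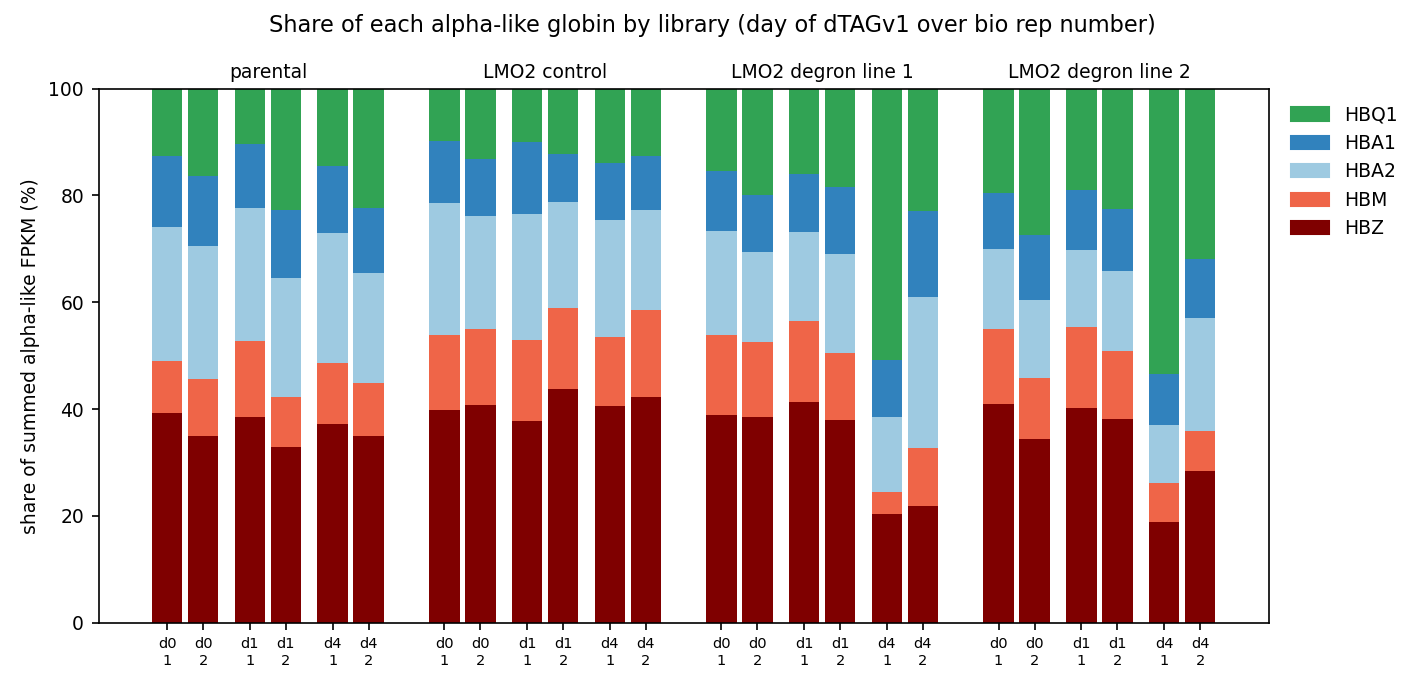
Share of each alpha-like globin in the summed alpha-like FPKM (vertical, percent) in each of the 24 K562 libraries (horizontal, day over bio rep number, grouped by line). HBZ (dark red) holds 18.9 to 28.3% on day 4 in the degron lines and at least 33.0% in every other library, and HBQ1 (green) reaches 50.8 and 53.4% in bio rep 1 of degron lines 1 and 2.

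Levels of the 2 globin clusters were set side by side in each degron line. From day 0 to day 4 the alpha-like sum moved from 493 and 241 FPKM down to 29.9 and 61.7 (degron line 1) and from 355 and 144 down to 14.03 and 17.7 (degron line 2), while the control lines held 232 to 605 on day 4. The sum of the beta-like globins (epsilon, both gamma, delta and beta) went from 91.0 and 49.6 to 29.3 and 34.5 FPKM in line 1 and from 190 and 79.6 to 61.6 and 96.2 in line 2. Alpha-like RNA thus exceeded beta-like RNA by 5.42 and 4.86 times on day 0 and 1.02 and 1.79 times on day 4 in line 1. In line 2 the ratio fell from 1.87 and 1.81 to 0.228 and 0.184, so that beta-like RNA was the more abundant there. Within the beta-like sum of line 2, HBD rose from 7.33 to 25.2 and from 7.01 to 45.3 FPKM, while HBG1, HBG2 and HBE1 fell in both bio reps. Control-line ratios were 2.14 to 3.78 over all days. The log2 ratio changed by -2.54 ± 0.82 (SD, n = 4) in the degron lines and -0.30 ± 0.22 in the control lines (exact permutation p = 0.0286, adjusted p = 0.0971), and the log2 alpha-like sum by -3.42 ± 1.18 and -0.44 ± 0.22 (same p and adjusted p). The 4 changes on each side come from 2 lines with 2 bio reps each, which these permutations take as separate units. Whether the degron lines differ in the ratio was not tested, with 2 libraries each.

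**Figure D4:**
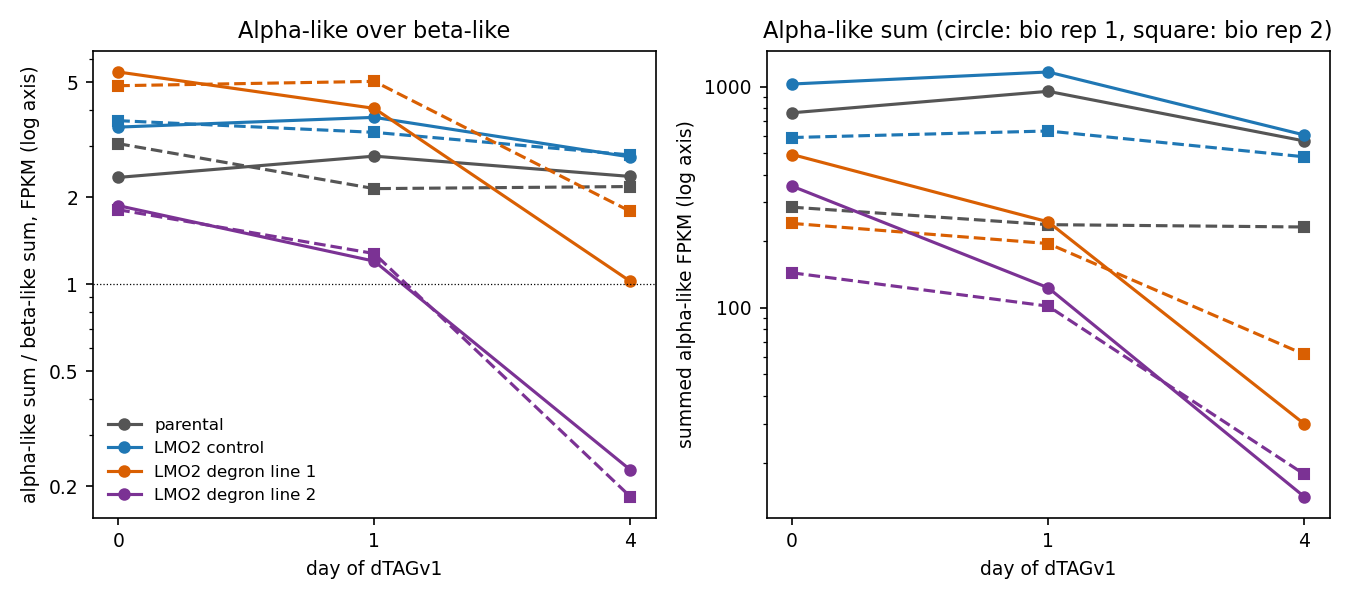
Left, summed alpha-like over summed beta-like FPKM (log axis), and right, summed alpha-like FPKM (log axis), by day of dTAGv1 (horizontal) in each line (color) and bio rep (circle and solid line 1, square and dashed line 2). Degron line 2 ends at ratios of 0.228 and 0.184 and degron line 1 at 1.02 and 1.79, while control lines stay between 2.14 and 3.78.

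AHSP per alpha-like RNA could be followed in few libraries. The log2 ratio of AHSP to the alpha-like sum changed by 2.20 ± 1.71 (SD, n = 3) from day 0 to day 4 in the degron lines and by -0.42 ± 0.69 (n = 4) in the control lines, a difference of 2.62. An exact permutation test gave p = 0.0571, the smallest possible with 3 against 4. Here too, bio reps of a line were taken as separate units. The pair with 0 AHSP reads is left out, and 2 or 3 reads lie behind each day 4 value of the degron lines and 10 to 79 behind those of the control lines.

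Genes around the members were read from lists. Of 13 neighbours of the alpha cluster, 11 were tested on day 4. Of these 1 fell, a share close to the 8.18% of all genes called lower. With the block 3 fell and 1 rose, beside 15.6% of genes called lower. In the fit without the block the gene called was NPRL3 (-0.81 ± 0.20, limma adjusted p = 0.0117), and the median was -0.13. LUC7L, next to HBQ1 on the far side of the cluster, stood at 0.31 ± 0.12 (adjusted p = 0.0806). Of 17 tested factors that act at globin loci, 7 fell and none rose (8 fell and 1 rose with the block), beside 8.18% of all genes lower and 11.6% higher. KLF1, which binds CACCC boxes, went from 71.3 to 133 FPKM on day 0 to 14.7 to 48.5 on day 1 and 4.30 to 22.5 on day 4 in the degron lines, and its change was already called on day 1 (-1.81, adjusted p = 0.00403) and was -3.02 ± 0.20 on day 4 (adjusted p = 7.56e-07). NFE2 (-1.57 ± 0.18), GATA1 (-0.86 ± 0.13) and GFI1B (-1.15 ± 0.18), all erythroid transcription factors, had adjusted p of 5.36e-05 to 0.00061. Among 9 tested genes of chain balance and heme supply 2 fell, among them UROD (-1.24 ± 0.12), and 2 rose, ALAS1 (2.36 ± 0.38) and NFE2L1 (0.99 ± 0.12). UROD is an enzyme of heme synthesis, and ALAS1 is the form of its first enzyme found in all tissues. Of 5 tested beta-like genes 1 rose, the delta globin HBD (1.72 ± 0.30, adjusted p = 0.00105), and none fell (3 with the block).

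Markers of other cells moved in the same libraries. The summed FPKM of 6 monocyte and granulocyte markers was 4.11 to 17.4 in control lines. In the degron lines it was 26.5 to 36.9, 38.9 to 55.4 and 93.5 to 118 on days 0, 1 and 4. CD14, CSF1R and MPO stayed under 1 FPKM in every library. The 3 markers tested were all called higher on day 4, beside 11.6% of all genes. Of these, CSF3R was under 1 FPKM in all control-line libraries and in the degron lines on days 0 and 1. It passed the filter only through degron libraries of day 4, where it is high, so its call is given as a description. The 8 erythroid markers include the gamma globins HBG1 and HBG2, so their sum is partly globin RNA. In parental day 0 bio rep 1, HBG1 alone stood at 266 FPKM. The sum was 349 to 734 FPKM in control lines and 313 to 527, 179 to 227 and 165 to 245 in the degron lines. On day 4, 1 of 8 fell and 1 rose, beside 8.18% of all genes called lower and 11.6% higher. With the block 5 fell and 1 rose, beside 15.6% of genes called lower. The part of these markers in the globin changes was not tested. Megakaryocyte, lymphoid and stroma marker sums were at most 6.47, 3.46 and 3.78 FPKM.

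Across the 24 K562 libraries the globins moved with each other (Pearson r of log2(FPKM + 1) from 0.957 to 0.995 over the 10 pairs) more closely than with AHSP (0.762 to 0.842), which had 25 reads or fewer in each degron library. Over the 12 control-line libraries, where AHSP had 10 to 168 reads, the ranges overlapped, at 0.895 to 0.992 between globins and 0.815 to 0.947 with AHSP. Among genes outside the set with a mean of at least 5 FPKM, the pattern most like HBA2 and HBA1 was that of PKLR, the red-cell pyruvate kinase (0.978 and 0.974). For HBZ it was RPL21 (0.968) and for HBM BLVRB (0.964), followed by RPL21 (0.957). RPL21, and also RPL10A near HBZ (0.963) and RPL32 near HBM (0.957), encode ribosomal proteins. For HBQ1 NSD2, GYPC and MYL4 came first (0.971 to 0.973), and for AHSP TLCD4, HEPACAM2 and SLC4A1 (0.942 to 0.965), the last being the anion exchanger of the red-cell membrane. These values describe libraries that share lines, days and bio rep numbers.

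In HEL cells the adult alpha genes fell after TAL1 knockdown. HBA1 stood at 15.35, 15.2 and 15.8 CPM in the non-targeting libraries, at 7.94, 5.24 and 4.45 with pool 1 and at 6.11, 6.36 and 5.86 with pool 2, with no overlap. The log2 changes were -1.38 ± 0.19 (edgeR adjusted p = 0.00177) and -1.35 ± 0.20 (adjusted p = 0.00551). HBA2 stood at 15.5, 9.065 and 13.1 against 4.61, 3.99 and 1.42 (pool 1) and 4.85, 3.62 and 3.09 (pool 2), which did not overlap either. Its changes were -1.90 ± 0.36 (adjusted p = 0.0124) and -1.71 ± 0.36 (adjusted p = 0.0461), and in pool 2 the call ended in the fits without any 1 of the non-targeting libraries, without pool 1 replicate 2 or without pool 2 replicate 2 or 3 (adjusted p = 0.0504 to 0.236). So, in this fit without a replicate block, 2 of the 4 members tested were called lower with each pool. Of all 16688 genes tested, 1.65% were called lower for pool 1 and 0.563% for pool 2. The median change of the 4 was -1.64 and -1.28, beside -0.018 and -0.0073 for all genes tested. With the replicate number as a block and all libraries kept, HBA2 was again called lower (edgeR adjusted p = 6.27e-06 and 4.42e-05). So was HBA1 (edgeR adjusted p = 2.35e-07 and 1.02e-06). Whether the replicate numbers pair these libraries is unsettled.

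HBQ1 and HBZ had lower means in HEL with both pools without passing the test in the fit with no replicate block. HBQ1 counts were 130, 192 and 112 in the non-targeting libraries, 73, 58 and 61 with pool 1 and 59, 65 and 74 with pool 2, and the log2 changes were -1.03 ± 0.28 (edgeR adjusted p = 0.0593) and -0.82 ± 0.28 (adjusted p = 0.241). The counts did not overlap. HBZ, the leading alpha-like transcript of K562, had 19, 19 and 60 counts, then 8, 10 and 0 and then 24, 5 and 8, with changes of -2.30 ± 0.79 (adjusted p = 0.138) and -1.21 ± 0.73 (adjusted p = 0.571). With the replicate number as a block, edgeR called HBQ1 lower with both pools (adjusted p = 0.00367 and 0.0267). HBZ was then called with pool 1 (adjusted p = 0.0421) and not with pool 2 (adjusted p = 0.313). Of the 16688 genes tested, the blocked fit called 2888 in either direction with pool 1 and 1694 with pool 2. Without the block 704 and 176 were called. The share called lower with the block is not given here, so the blocked calls of HBQ1 and HBZ are a description. HBM and AHSP did not pass the filter, with 4 and 8 counts in all 9 libraries together. Where a HEL library held 0 counts of HBZ, HBM or AHSP, up to 0.111 to 0.189 CPM are allowed.

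The whole cluster was a small part of globin RNA in HEL. Summed alpha-like CPM was 36.5, 33.3 and 36.3 in the non-targeting libraries, 16.1, 12.25 and 8.77 with pool 1 and 14.2, 13.6 and 14.1 with pool 2. On the log2 scale the 6 siTAL1 libraries averaged 3.69 ± 0.30 (SD) and the 3 non-targeting libraries 5.14 ± 0.075 (exact permutation p = 0.0238, the smallest that 6 against 3 allows, adjusted p = 0.0971). Reads of alpha-like genes amounted to 0.0123 to 0.0153 of those of beta-like genes in the non-targeting libraries and 0.00842 to 0.0135 in the others (log2 difference -0.44, exact permutation p = 0.0714, adjusted p = 0.174), on a scale with no gene length. In the same libraries 4 of 6 beta-like genes fell with pool 1 and 3 with pool 2, and of 18 factors at globin loci 6 and 2 fell. Neither pool moved any of the 7 tested neighbours of the alpha cluster past the threshold. The pools did not differ detectably in a member (HBA1 0.030 ± 0.20 and HBA2 0.19 ± 0.37 for pool 2 minus pool 1, adjusted p = 0.962 and 0.865), while 2.76% of genes were called between them. Monocyte and granulocyte marker sums were 34.6 to 37.2 CPM without and 34.9 to 62.8 with siTAL1, with 2 of 4 tested markers risen with pool 1 and 0 with pool 2. Over the 16688 genes tested, 704 were called in either direction with pool 1 and 176 with pool 2, 276 and 94 of them lower. Erythroid marker sums, which include HBG1 and HBG2, were 4560 to 4590 CPM without and 2610 to 3450 with siTAL1. Beside 1.65% and 0.563% of all genes called lower with pool 1 and pool 2, 3 and 4 of 7 tested markers fell. Their part in the alpha globin changes was not tested.

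With LDB1 shRNAs in K562 there was 1 library per group and so no test. HBZ stood at 3781 TPM with the control shRNA, the highest of the 6, and at 432 and 772 TPM with shRNA 1 and 2. AHSP went from 35.4 to 2.97 and 2.72, HBM from 12.8 to 2.05 and 2.50, and HBQ1 from 327 to 142 and 156. These 4 of 6 were past a log2 ratio of (TPM + 1) of 1 downward in both shRNA libraries, as were 2.21% of the 12445 genes with a highest TPM of at least 5 (275 lower and 1113 higher). The median gene stood at 0.18 and 0.13, and after centring on it the same 4 members were past the fold, beside 424 genes lower and 886 higher. HBA2 (468, 252 and 298 TPM) and HBA1 (176, 59.1 and 151) stood lower without reaching it in both. The log2 ratios were -3.13 and -2.29 for HBZ and -3.20 and -3.29 for AHSP. HBZ made up 79.4% of the alpha-like sum with the control shRNA and 48.7 and 56.0% with the LDB1 shRNAs, while HBA1 and HBA2 together went from 13.5 to 35.1 and 32.6%. KLF1 stood at 531, 111 and 165 TPM in these libraries.

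**Figure D5:**
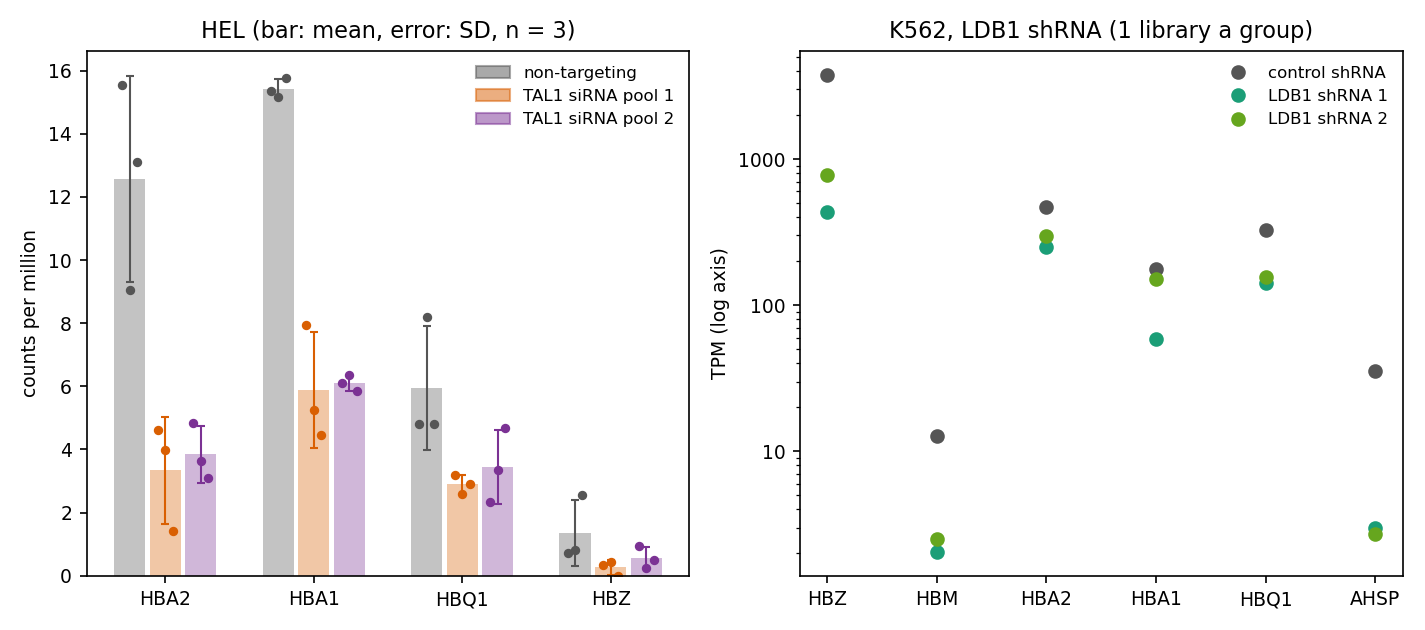
Left, CPM of 4 alpha-like globins in HEL cells (points are libraries, bars the mean and error bars the SD of 3); right, TPM (log axis) of the 6 genes in the 3 K562 shRNA libraries. HBA1 is at 15.2 to 15.8 without and 4.45 to 7.94 with TAL1 siRNA, and HBZ at 3781 with the control shRNA and 432 and 772 with the LDB1 shRNAs.

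Across the tables the same genes stood at different relative levels in K562. HBM made up 9.21 to 16.4% of the alpha-like sum in the control lines of the degron set and 0.268% with the control shRNA, and HBZ 33.0 to 43.7% and 79.4%. The tables were normalized separately and their gene models may differ, and the cause was not tested. In the LDB1 libraries alpha-like RNA was 0.573 of the 4 beta-like globins listed there with the control shRNA and 0.192 and 0.216 with the LDB1 shRNAs.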

How the data were processed

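RNA was measured in 24 K562 degron libraries, 9 HEL libraries and 3 K562 LDB1 shRNA libraries. FPKM values (K562 degron set), raw read counts (HEL) and TPM values (LDB1 shRNAs) are as the authors deposited them. The submitters' processing notes name FastQC, STAR, featureCounts and the build hg19, without versions or the step each served, and no source used here gives the strand setting. Whole reads were recovered from the steps of the FPKM values for 36704 of 36704 genes, to within 0.02 reads.

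Log2(FPKM + 1) was fitted over 12 line-by-day groups with limma 3.58.1 (trended, robust variance), after keeping genes at 1 FPKM or more in at least 2 libraries. HEL counts were fitted with edgeR 4.0.16 (quasi-likelihood, TMM, filterByExpr). P-values were adjusted by Benjamini-Hochberg over all genes tested, with a threshold of 0.05. LDB1 ratios are log2(TPM + 1) differences without a test. Cluster sums and shares were compared by exact two-sided permutation tests (scipy 1.17.1) over 17 tests. In K562 these take bio reps of a line as separate units, although they are not separate lines. Scripts were tested on simulated data.

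Same-numbered K562 bio reps deviated together in 66 of 66 pairs of groups (r from 0.119 to 0.662, median 0.377), so the number was taken as pairing. The main fit and the fits without 1 library have no block and leave this pairing out. Their SEs are the larger for it: on day 4, 0.73 for HBZ and 0.38 for HBQ1, against 0.59 and 0.20 with the block. A fit with the block is therefore given beside the member calls. Named genes are the 6 members, LMO2, LDB1, TAL1 and KLF1, up to 4 genes per list with the smallest adjusted p, and the 3 genes with the most similar pattern, less a few items that are not reported here. Members and lists were chosen with earlier results of these data known. Alternatives were another pseudocount (0.1), no filter, rescaling, DESeq2 1.42.0 (HEL), other controls, each degron line alone, each library left out and edgeR on recovered reads.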

Additional observations from a re-analysis of the deposited data

Results flagged for a closer look

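The degron-specific change of HBZ differed between the days: by the test of the difference itself in limma, day 4 minus day 1 was -2.68 ± 0.73 (adjusted p = 0.0392). On day 1 the change was -0.84 and on day 4 it was -3.52, and the difference was of the same sign in both bio reps.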

How the results depend on the processing

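Of the values for single genes, 1491 kept their direction and side of the threshold across the alternatives, 63 lost and 21 gained a call, 56 changed sign, and 10 ratios without a test moved in size. Rescaling by trimmed means kept every count of members called in the K562 comparisons, which for day 4 remained 5 of 6.

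On day 1 the genes called numbered 12, 40 with no filter, 167 with the replicate block, 0 with parental cells as the only control, 0 with degron line 1 alone, 5 with line 2 alone and 1 to 12 with 1 library left out. The members called were 1 with the block, and AHSP ran from -0.87 to 0.49 without 1 library. On day 4 the genes called were 5471 with the replicate block, 1763 with parental cells alone and 1398 with line 1 alone. The members called were 3 with no filter, 3 with parental cells alone, 2 with line 1 alone and 3 to 5 without 1 library. AHSP was -0.35 with a pseudocount of 0.1, -0.047 with line 1 alone, -1.19 by edgeR on the recovered reads (an alternative chosen after seeing the data) and -0.27 to 0.70 without 1 library. For day 4 minus day 1 the genes called were 2616 with the replicate block, 424 with parental cells alone, 130 with line 1 alone, 695 with line 2 alone and 617 to 1192 without 1 library. The members called were 3 with the block, 0 with no filter, with parental cells alone or with either line alone, and 0 to 3 without 1 library, with AHSP from -0.27 to 1.08. On day 0 the genes called were 4729 with the block and 1197 with line 1 alone. The members called were 4 with the block, 2 by edgeR on the recovered reads, 0 with no filter, parental cells alone or line 1 alone, and 0 to 2 without 1 library.

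In the control lines no filter gave 23 genes on day 1 and 23 on day 4, and leaving out 1 library gave 0 to 2 on day 1. AHSP on day 1 was 0.075 by edgeR on the recovered reads. Without 1 library the day 1 changes ran from -0.49 to 0.62 (HBZ), -0.43 to 0.85 (HBM), -0.53 to 0.54 (HBA2), -0.45 to 0.50 (HBA1), -0.14 to 0.37 (HBQ1) and -0.85 to 0.51 (AHSP), and that of HBQ1 on day 4 from -0.42 to 0.088. Between the degron lines the genes called were 1 with a pseudocount of 0.1, 59 with no filter, 4 with the block, 1 by edgeR on the recovered reads and 1 to 2 without 1 library, with HBZ from -1.23 to 0.30, HBM from -1.05 to 0.71, HBA2 from -1.53 to 0.29 and AHSP from -0.10 to 1.15. For the LMO2 control line against parental cells they were 446 with no filter, 711 with the block and 124 to 290 without 1 library, with HBA2 from -0.10 to 1.31, HBA1 from -0.23 to 1.19, HBQ1 from -0.11 to 0.91 and AHSP from -0.40 to 1.44.

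In HEL the replicate numbers were not taken as pairing the libraries. Same-numbered pairs deviated together weakly (r from 0.0869 to 0.363, median 0.123, 6 of 9 above 0.1). Pairs with different numbers had a median of -0.16. Of the 9 libraries, 3 correlated best with their own number in both other groups. Whether the numbers pair the libraries is therefore unsettled. Pool 1 gave 1084 genes with no filter, 2888 with the replicate block and 279 to 905 without 1 library, with 4 members called with no filter and 4 with the block (HBQ1 and HBZ added). Pool 2 gave 382 genes by DESeq2, 418 with no filter, 1694 with the block and 35 to 296 without 1 library, with 3 members called with the block (HBQ1 added) and 1 to 2 without 1 library. Pool 2 against pool 1 gave 776 genes by DESeq2, 758 with no filter, 2431 with the block and 128 to 592 without 1 library, with HBA2 from -0.17 to 0.51, HBA1 from -0.14 to 0.32 and HBQ1 from -0.043 to 0.42.

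Among the cluster measures, the HEL difference in HBZ share was 0.22 points with pool 2 alone and -1.78 to 0.80 without 1 library. Levels on the day instead of changes put the combined HBA1 and HBA2 share at -6.70 (day 1) and -2.21 points (day 4) and log2 HBA1 over HBA2 at 0.32 on day 4, and without 1 library that ratio ran from -0.0015 to 0.14 (day 1) and -0.25 to 0.10 (day 4). The cause of these shifts was not tested. With 2 libraries per line and day, 3 per HEL group and 1 per shRNA, no locus measure passed adjustment, and AHSP rests on 25 reads or fewer in every degron library.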

Other observations

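HBZP1, the zeta globin pseudogene after HBZ in the cluster and named here after its values were seen, stood at 48.9 TPM with the control shRNA and at 3.39 and 8.91 TPM with LDB1 shRNA 1 and 2 (log2 ratios of -3.51 and -2.33), beside -3.13 and -2.29 for HBZ. It shares sequence with HBZ, so reads could have been split between them. Of the beta-like genes listed there, HBG1 went from 982 to 234 and 426 TPM and HBG2 from 2439 to 699 and 883, while HBE1 stood at 4846, 3639 and 5017 and HBD at 42.8, 54.3 and 50.3. In these 3 libraries LMO2 was at 131, 44.2 and 46.2 TPM and TAL1 at 102.3, 104.7 and 103.

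In HEL, over 9 libraries, the patterns most like those of HBA1, HBA2 and HBZ were ADD2 (r = 0.994) and CCNE1 (0.993) for HBA1, MLLT11 (0.985) for HBA2 and CNN3 (0.913) for HBZ. ADD2 encodes the beta subunit of adducin, part of the red-cell membrane skeleton. These correlations describe libraries that share 3 treatments.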
